A study of Mus musculus with 6 samples.

Results

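The genes described here encode the proteins of the cytosolic ribosome in mouse leukaemia cells, together with paralogues of some of them. They were chosen by gene symbol from a fixed list of 47 names, and all 47 had a row among the 53819 rows of the deposited count table. Of these, 42 are core ribosomal protein genes, 28 of the large (60S) and 14 of the small (40S) subunit, and 5 are the paralogues Rpl22l1, Rps27l, Rps4l, Rpl39l and Rpl7l1. A test was possible for 46 of the 47, since Rpl39l had no read in any library.

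RNA was sequenced from leukaemia cells sorted out of mouse spleens after transplantation. The transplanted primary cells carried BCR-ABL together with NUP98-HOXA9, oncogenic fusions that model chronic myeloid leukaemia in blast crisis (bcCML). Of the 6 libraries, 3 carry the genotype label SLC6A6 KO (KO1 to KO3, the order in which values are given) and 3 the label SLC6A6 WT (WT1 to WT3), while the series title speaks of a knock-down. Cells of both groups carry the same pair of fusion genes. The sources used here give neither the allele, the strain, age and number of mice nor the sorting marker, and do not say whether the libraries come from separate mice. The p-values therefore reflect the spread among these libraries alone, part of which may be technical. Slc6a6 codes for the transporter that carries taurine into cells, and the study asked what its loss or knock-down does in this leukaemia.

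A ribosome holds 1 copy of most of its proteins, and the genes for them are among the most strongly transcribed of a dividing cell. Their mRNAs begin with a pyrimidine tract (the 5′ TOP motif) through which mTORC1 sets their translation, so that control falls mainly on translation and less on mRNA level. Ribosomal proteins left outside the ribosome, RPL5 and RPL11 above all, bind MDM2 and stabilise p53. A few ribosomal protein genes have paralogues with restricted or induced expression, and whether these make specialised ribosomes is debated.

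Library totals lay between 42829294 and 49537098 counts. Slc6a6 was measured at 125, 132 and 133 CPM (reads of a gene scaled by the size of the library) in KO1 to KO3, against 151, 145 and 145 CPM in WT1 to WT3, a difference that did not pass the test (adjusted p = 0.196). Counts per gene cannot show a lost or altered part of the transcript, so this does not check the genotype. Hoxa9, Meis1, Kit, Ptprc and the other 7 progenitor and leukaemia genes examined were detected in both groups, but not at equal levels. Kit was at 65.1 ± 17.8 CPM in KO and 17.9 ± 7.87 CPM in WT (adjusted p = 0.0450), the 1 of the 11 that passed the test. Hoxa9 was at 102 ± 5.63 CPM in KO and 134 ± 5.73 CPM in WT (SD, n = 3 each; edgeR adjusted p = 0.0502). Hoxa9, Cd34, Flt3, Nup98 and Abl1 were each lower in all KO than in all WT libraries, and Kit and Myb were each higher. Over all tested genes 3.56% passed the test, and 14.4% lay lower and 13.6% higher in this way. DESeq2 called 1 of the 11 higher and 5 lower, where it called 7.06% of all genes higher and 6.04% lower. The groups also differ in sex-linked transcripts, with Eif2s3y at 92.5 ± 9.64 CPM in KO and 0 in WT (SD, n = 3 each) and Xist at 1.83 ± 2.25 CPM in KO and 178 ± 18.7 CPM in WT. Genotype and sex of the cells therefore cannot be told apart in any comparison below.

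The paralogues differ from their core partners in sequence, and this decides whether a 100-base read can be assigned to 1 of them. Stretches of 60 aligned bases are shown for each pair, with the bases that differ within the pair in capitals. They were read from GENCODE M21 transcripts (sense strand, 5′ to 3′) and are the first ungapped stretch of that length when the coding sequences are aligned. For Rps4l, which has no annotated coding sequence, the transcript was used. The pair Rps4l (chromosome 6) and Rps4x (chromosome X) is shown first because it carries the largest difference between the groups.
Rps4l: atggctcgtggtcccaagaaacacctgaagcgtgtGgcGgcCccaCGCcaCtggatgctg
Rps4x: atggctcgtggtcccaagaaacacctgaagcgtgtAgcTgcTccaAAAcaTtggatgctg
Rps27l: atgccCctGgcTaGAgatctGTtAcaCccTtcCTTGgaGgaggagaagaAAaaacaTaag
Rps27: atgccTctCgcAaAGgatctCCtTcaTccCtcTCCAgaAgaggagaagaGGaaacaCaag
Rpl22l1: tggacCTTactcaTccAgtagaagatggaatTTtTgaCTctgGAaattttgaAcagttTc
Rpl22: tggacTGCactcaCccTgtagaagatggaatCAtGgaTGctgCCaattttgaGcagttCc
Rpl7l1: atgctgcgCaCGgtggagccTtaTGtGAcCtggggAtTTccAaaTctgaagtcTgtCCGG
Rpl7: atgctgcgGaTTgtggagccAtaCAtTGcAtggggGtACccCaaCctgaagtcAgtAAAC
Rpl39l: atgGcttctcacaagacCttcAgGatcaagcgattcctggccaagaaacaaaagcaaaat
Rpl39: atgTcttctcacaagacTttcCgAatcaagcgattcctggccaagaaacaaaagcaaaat

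Over the aligned part, identity was 79.8% for Rps4l and Rps4x, 76.5% for Rps27l and Rps27, and 74.2% for Rpl22l1 and Rpl22. It was 66.7% for Rpl7l1 and Rpl7, and 85.3% for Rpl39l and Rpl39. In that order the aligned part spanned 792, 226, 299, 189 and 156 columns. For Rpl7l1 and Rpl7 this is a minor part of coding sequences of 741 and 813 bases. The longest run of identical bases in any pair was 38, in Rpl39l and Rpl39, so no 100-base window lying within these aligned sequences is shared by a pair. For some of the paralogues, the transcripts of other annotated genes are closer than the partner. Of the 100-base windows of the Rps4l transcript, 1.7% occur in the transcript of another annotated gene (Rps4l-ps, listed at 0 in all 6 libraries), and none of those of Rps27l or Rpl39l do. For Rpl22l1 the share was 50.8%, over 2 other genes.

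Rps4l was the 1 paralogue, and the 1 of the 46 tested genes, that passed the test. It was lower in the KO libraries, at 2.99, 0.588 and 3.49 CPM in KO1 to KO3, against 122, 61.3 and 132.5 CPM in WT1 to WT3. The groups lie far apart, and within each the outlying library is the low one, KO2 and WT2. In reads these are 133, 27 and 144 in KO and 6164, 2908 and 5994 in WT. The log2 fold change was −5.49 ± 0.64 (SE, n = 3 each), a fitted ratio of 44.9 between WT and KO, with a Benjamini-Hochberg adjusted p of 0.0140 in edgeR's quasi-likelihood test. Over all 15232 genes tested, 3.56% passed this test, 1.64% higher and 1.92% lower in KO. Without KO1 the adjusted p was 0.0547 and without WT3 it was 0.0643, at log2 fold changes of −5.70 and −5.29.

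Rps4l lies on chromosome 6 and is annotated as a transcribed processed pseudogene in GENCODE M21 and as a transcribed pseudogene in RefSeq. It is called a paralogue here by the list that chose it, and these data do not show whether a protein is made from it. Its core partner Rps4x encodes the 40S protein eS4. Rps4x was at 390, 439 and 456 CPM in KO1 to KO3, against 429, 511 and 463 CPM in WT1 to WT3, and these ranges overlap (log2 fold change −0.13 ± 0.10, adjusted p = 0.498). The ratio of Rps4l to Rps4x reads was 0.00770, 0.00137 and 0.00767 in the KO libraries and 0.285, 0.120 and 0.286 in the WT libraries. On the log2 scale the mean ratio differed by −5.63 between KO and WT. The exact two-sided permutation test gave p = 0.1, the smallest value that 3 against 3 libraries allow, and 0.2 after adjustment over the 4 pairs compared. Of the 3 nearest tested genes on either side of Rps4l, namely Far2, Ergic2, 4732416N19Rik, Ipo8, 2610017A05Rik and Caprin2, none passed the test (named after the Rps4l values were seen). Among them Ergic2 was at 102 ± 11.8 CPM in KO and 100.5 ± 2.22 CPM in WT, and Ipo8 at 73.2 ± 5.11 against 71.2 ± 4.83 CPM (SD, n = 3 each).

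The other paralogues did not pass the test. Rps27l, which p53 induces and which encodes a near relative of the 40S protein eS27, was at 532, 530 and 657 CPM in KO1 to KO3, against 584, 613 and 555 CPM in WT1 to WT3. KO3 is the highest of all 6 libraries and the other KO libraries the lowest (log2 fold change −0.03 ± 0.10, adjusted p = 0.909). Rps27 was at 205, 205 and 228 CPM in KO, against 233, 250 and 217 CPM in WT (−0.13 ± 0.08, adjusted p = 0.419). Per kb of the longest coding transcript, a scale that allows levels of different genes to be set side by side, Rps27l stood at 996 in KO and 1016 CPM per kb in WT, and Rps27 at 465 and 509 CPM per kb. Of the 100-base windows of Rps27, 57.9% also occur in its copy Rps27rt, and the effect of this on the Rps27 value was not tested. The log2 ratio of Rps27l to Rps27 reads was 1.42 ± 0.09 in KO and 1.33 ± 0.03 in WT (SD, n = 3 each). All 3 KO ratios lay above all 3 WT ratios, by a mean of 0.10 (exact two-sided permutation p = 0.1, the smallest possible, adjusted p = 0.2).

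Rpl22l1 encodes a relative of the 60S protein eL22, and in mouse cells RPL22 protein represses it. It was at 65.0, 64.0 and 70.3 CPM in KO1 to KO3, against 71.7, 82.9 and 73.0 CPM in WT1 to WT3. No KO library reached the lowest WT library, but the gap was small (−0.19 ± 0.10, adjusted p = 0.297). Rpl22 was at 172, 188 and 198 CPM in KO, against 206, 226 and 200.4 CPM in WT (−0.18 ± 0.09, adjusted p = 0.280). The Rpl22l1 to Rpl22 log2 ratio was −1.48 ± 0.08 in KO and −1.47 ± 0.04 in WT (SD, n = 3 each; exact two-sided permutation p = 1.0, adjusted p = 1.0). Rpl7l1 is the mammalian relative of the yeast 60S assembly factor Rlp7. It was at 267, 292 and 251 CPM in KO1 to KO3, against 283, 330 and 298 CPM in WT1 to WT3, with KO2 inside the WT range (−0.17 ± 0.09, adjusted p = 0.340). Rpl7 was at 499, 538 and 573 CPM in KO, against 530, 625 and 583 CPM in WT, and the log2 ratio of the pair was −0.99 ± 0.17 in KO and −0.93 ± 0.03 in WT (SD, n = 3 each; exact two-sided permutation p = 1.0, adjusted p = 1.0).

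Rpl39l, known for expression in male germ cells, had 0 reads in each of the 6 libraries, where 3 reads, the limit that a count of 0 allows, correspond to 0.0594 to 0.0727 CPM. Its partner Rpl39, on the X chromosome, encodes a protein of the peptide exit tunnel. It was at 143, 162 and 160 CPM in KO1 to KO3, against 182, 195 and 175 CPM in WT1 to WT3, with no overlap (−0.25 ± 0.08, adjusted p = 0.148).

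**Figure D1:**
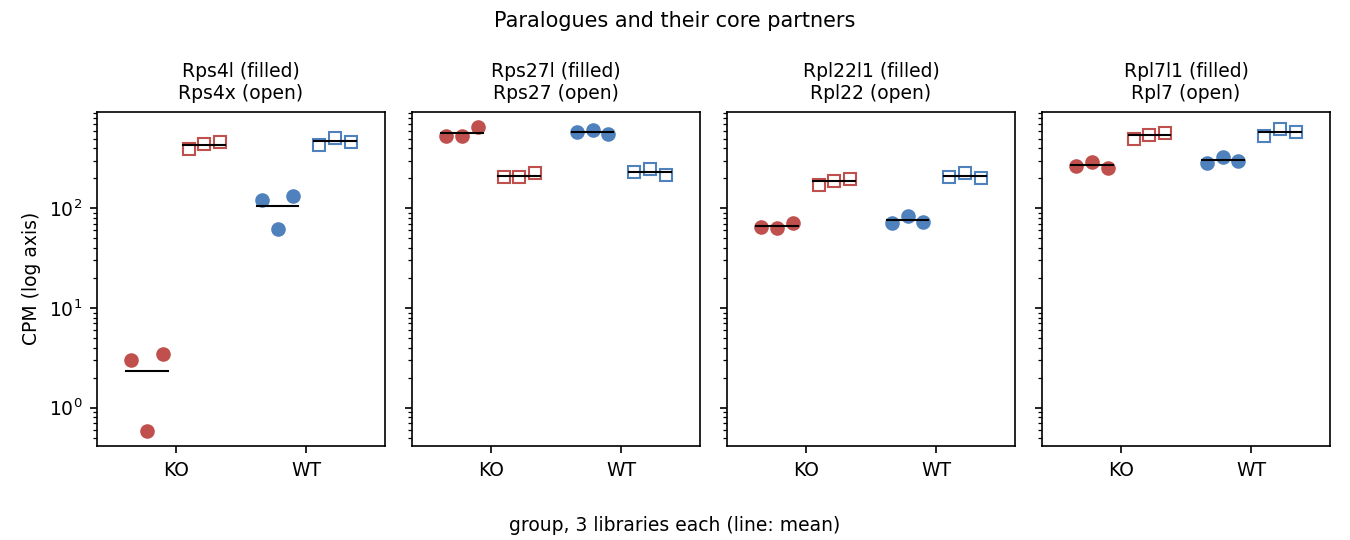
CPM of the 4 detected paralogues (filled circles) and their core partners (open squares) in the 3 KO (red) and 3 WT (blue) libraries, on a log axis, with the mean as a line. Rps4l stands at 0.588 to 3.49 CPM in KO and 61.3 to 132.5 CPM in WT, while the other genes differ little between the groups.

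The core ribosomal protein genes were slightly lower in the KO libraries, and none passed the test. Of the 42, 0 were higher and 0 lower by edgeR's quasi-likelihood test (Benjamini-Hochberg adjusted p under 0.05), against 3.56% of all tested genes in either direction. At an unadjusted p below 0.05, 13 were lower and 0 higher, where 10.4% of all tested genes were lower. DESeq2 called 1 of the 42 lower, Rplp1, and 0 higher, where it called 6.04% of all genes lower and 7.06% higher. The fold change was negative for 40 of the 42, with a median log2 value of −0.17 (quartiles −0.23 and −0.11). Over all tested genes 49.1% were negative, with a median of 0.01 and quartiles of −0.23 and 0.31. In 17 of the 42 all 3 KO libraries lay below all 3 WT libraries, as in 14.4% of all tested genes, and in none did all 3 lie above. Together the core genes took 1.75%, 1.96% and 1.94% of the reads of KO1 to KO3, against 2.02%, 2.26% and 2.13% in WT1 to WT3. By share of unscaled library totals the highest KO library thus lay just below the lowest WT library. Summed as CPM, which use scaled library sizes, KO3 stood at 20127 and WT1 at 19854 CPM, so the groups overlapped.

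The shift came in unequal parts from single libraries. Each gene was set against its own mean over the 6 libraries, leaving out Rpl24, which is described separately. KO1 was the lowest library for 38 of the 41 remaining core genes and KO2 for 3, while WT2 was the highest for 39 and KO3 for 2. The median deviation on the log2 scale was −0.19, −0.07 and 0.00 in KO1 to KO3, and −0.02, 0.20 and 0.08 in WT1 to WT3, so that KO3 and WT1 lay next to each other with KO3 slightly the higher. Without KO1 the median log2 fold change of the 42 was −0.11 with 37 negative, and without WT2 it was −0.12 with 37 negative. Without WT1 it was −0.24 with 42 negative, and in 33 of the 42 all KO libraries then lay below all WT libraries, as in 20.9% of all tested genes. Without KO3 that number was 27, against 18.5% of all tested genes.

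Other fits called 0 core genes too, over backgrounds that differed widely. Without KO1, 0.395% of all genes were lower and 0.295% higher, without KO2 1.55% and 2.32%, and without KO3 0.33% and 0.237%. Without WT1 the shares were 0.927% lower and 0.676% higher, without WT2 0.798% and 0.424%, and without WT3 0.181% and 0.081%. With the replicate number as a block they were 0.131% and 0.0525%, with the erythroid covariate 0.663% and 0.939%, with limma-voom 1.62% and 1.34%, and with library totals as the only scaling 1.79% and 1.45%. In each of these fits the core genes past the test numbered 0 in both directions.

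**Figure D2:**
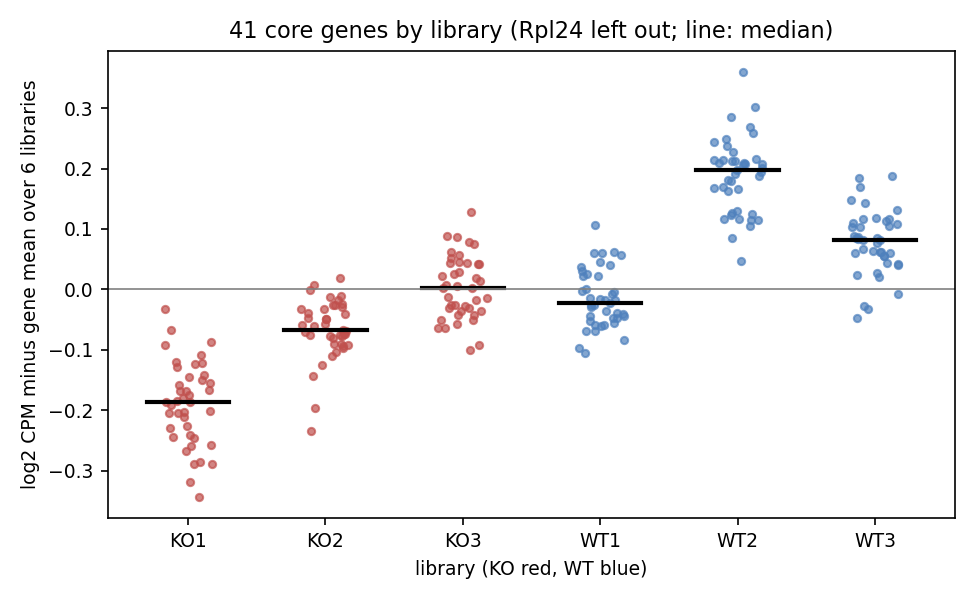
Log2 CPM of each of 41 core genes minus its own mean over the 6 libraries, 1 point a gene, with the median as a line, KO libraries (red) at the left and WT libraries (blue) at the right. The genes of a library move together: medians run between −0.19 (KO1) and 0.20 (WT2), and KO3 (0.00) and WT1 (−0.02) lie side by side.

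Erythroid markers varied widely between libraries, and their summed levels overlapped between the groups. Summed over 19 genes, they stood at 31156, 10774 and 35035 CPM in KO1 to KO3, against 5088, 15716 and 9345 CPM in WT1 to WT3. Of the 19 markers, 18 had a positive fold change, with a median log2 value of 1.55, where 49.1% of all tested genes were negative. For 0 of the 19 did all KO libraries lie above all WT libraries. KO1 and KO3 were the highest libraries in these markers, and WT2 was the highest WT library. With the mean of the markers as a covariate the core median was −0.23, with 42 of 42 negative and 0 past the test. As 18 of the 19 markers were themselves positive in KO over WT, this fit cannot separate erythroid content from group. Summed marker levels were also higher in KO for B cells (64.5 to 168 CPM, against 5.53 to 43.6 CPM in WT, over 12 genes) and macrophages (118 to 199 CPM, against 35.9 to 55.8 CPM, over 12 genes). The sums overlapped for neutrophils (31.9 to 246 CPM in KO, 135 to 893 CPM in WT, over 15 genes) and for T and NK cells (755 to 1057 CPM in KO, 708 to 866 CPM in WT, over 17 genes), a list dominated by Nkg7 at 690.4 CPM or more in every library. Single T and NK markers did differ: of 15 tested, 6 were higher in KO and 0 lower by edgeR's test, and for 11 all KO libraries lay above all WT libraries, as for 13.6% of all tested genes. Among them Cd3e was at 2.14 ± 1.00 CPM in KO and 0.0264 ± 0.0458 CPM in WT, and Cd2 at 1.46 ± 0.389 CPM in KO and 0.0786 ± 0.0509 CPM in WT (SD, n = 3 each). Of the macrophage markers 3 of 12 tested were higher by that test, and of the B cell markers 3 of 8. None of 19 erythroid and 14 neutrophil markers passed it. Over all tested genes 1.64% were higher and 1.92% lower by it. For 10 of the 12 macrophage and 6 of the 8 B cell markers all KO libraries lay above all WT libraries. At an unadjusted p under 0.05, 10 erythroid markers were higher and 4 neutrophil markers lower. At that level 1770 of all 15232 tested genes were higher and 10.4% were lower. DESeq2 called 10 of 15 T and NK, 10 of 12 macrophage, 4 of 8 B cell and 1 of 19 erythroid markers higher. It called 2 of 14 neutrophil markers lower. Over all genes it called 7.06% higher and 6.04% lower. No marker of these lists was at 0 throughout KO, and those at 0 in WT included Cd4, Ncr1 and Pax5. The part of these cells in the ribosomal protein values was not tested. In bulk libraries fewer cells of a type and less RNA per cell cannot be told apart.

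The genes of the ribosomal stalk, which recruits the elongation factors to the 60S subunit, held the largest and second largest differences among the core genes. Rplp1 was at 347, 375 and 437 CPM in KO1 to KO3, against 459, 565 and 496 CPM in WT1 to WT3. No libraries overlapped, and KO3 came close to WT1 (−0.39 ± 0.12, adjusted p = 0.112). Rplp0, which anchors the stalk, was at 1417, 1478 and 1663 CPM in KO, against 1690, 2088 and 1925 CPM in WT, again without overlap (−0.32 ± 0.10, adjusted p = 0.127). Rplp2, the dimer partner of Rplp1, was at 372, 408 and 436 CPM in KO, against 447, 526 and 467 CPM in WT (−0.24 ± 0.09, adjusted p = 0.187). None of the 3 passed the test, and DESeq2 gave Rplp1 an adjusted p of 0.0350.

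In the 5S particle, which docks on the 60S subunit and otherwise binds MDM2, Rpl5 was at 240, 262 and 257 CPM in KO1 to KO3, against 269, 320 and 302 CPM in WT1 to WT3. These ranges did not overlap (−0.23 ± 0.09, adjusted p = 0.180). Rpl11 was at 213, 240 and 251 CPM in KO, against 242, 279 and 260 CPM in WT, with KO3 inside the WT range (−0.15 ± 0.09, adjusted p = 0.402). Rpl23, which also binds MDM2, was at 277, 318 and 326 CPM in KO, against 343, 393 and 354 CPM in WT (−0.24 ± 0.09, adjusted p = 0.186). It too was without overlap. Among the other 60S genes with the smallest p, Rpl6, Rpl27 and Rpl30 were 14.1%, 16.4% and 15.9% lower without overlap, at adjusted p-values of 0.159, 0.173 and 0.164. Rpl4, whose protein lines the exit tunnel, was the second most abundant core gene by CPM, at 1502, 1585 and 1637 CPM in KO, against 1698, 1897 and 1746 CPM in WT (−0.18 ± 0.07, adjusted p = 0.210).

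Among the 60S genes with fold changes near 0, Rpl13 and Rpl35 had log2 fold changes of −0.02 ± 0.08 and −0.05 ± 0.10 (adjusted p = 0.925 and 0.811), with KO and WT libraries intermixed. The 28 genes of the 60S subunit had a median of −0.18 with 27 negative and 13 without overlap, and the 14 of the 40S subunit a median of −0.15 with 13 negative and 4 without overlap. Over all tested genes 49.1% were negative and in 14.4% all KO libraries lay below all WT libraries. The difference between the subunits was not tested.

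Among the 40S genes, Rps13 had the smallest p. It was at 289, 324 and 341 CPM in KO1 to KO3, against 351, 430 and 402 CPM in WT1 to WT3, without overlap (−0.31 ± 0.10, adjusted p = 0.141). Rps6, whose protein is the classical substrate of the S6 kinases below mTORC1, was at 397, 408 and 428 CPM in KO, against 409, 457 and 434 CPM in WT, with the groups overlapping (−0.08 ± 0.07, adjusted p = 0.602). Rps3, part of the mRNA entry site, was at 1051, 1032 and 1148 CPM in KO, against 1049, 1198 and 1133 CPM in WT (−0.07 ± 0.08, adjusted p = 0.687). Rps19, the gene most often mutated in human Diamond-Blackfan anaemia, was the 1 core gene apart from Rpl24 with a positive fold change. It was at 557, 544 and 623 CPM in KO, against 555, 589 and 557 CPM in WT (0.02 ± 0.08, adjusted p = 0.920). Over the 10 core genes mutated in that anaemia the median was −0.17 with 9 negative, close to all 42 core genes.

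**Figure D3:**
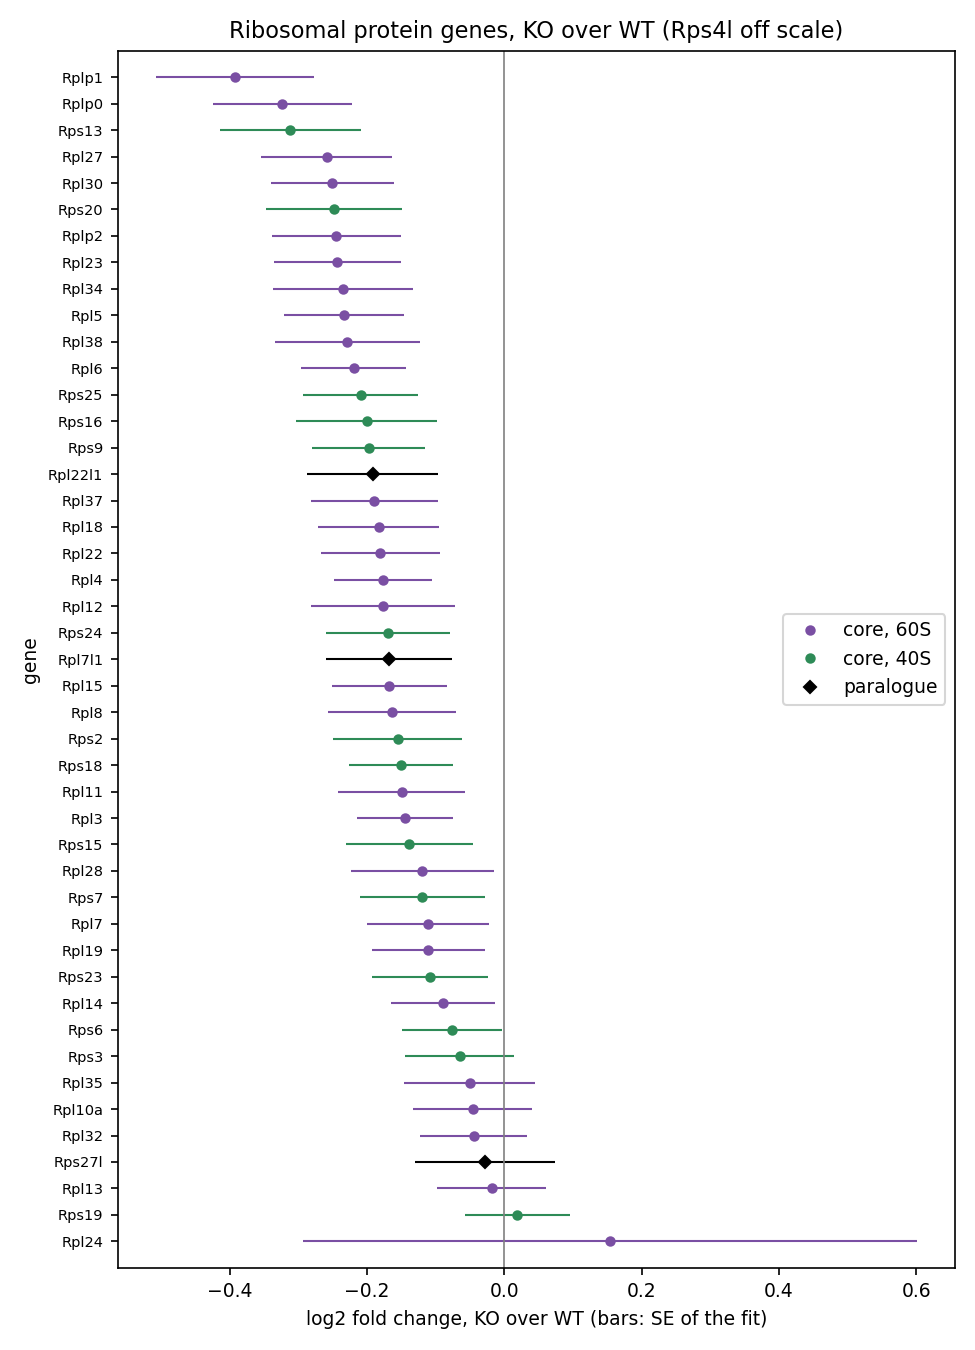
Log2 fold change, KO over WT, with its standard error for the 42 core genes (60S purple, 40S green) and 3 paralogues (black diamonds), ordered by value. Rplp1 (−0.39), Rplp0 (−0.32) and Rps13 (−0.31) are lowest, 40 of 42 core genes lie below 0, and none of the genes drawn passed the test. Rps4l (−5.49) is off the scale and Rpl39l had no reads.

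Rpl24 did not behave as a core ribosomal protein gene in this table. It had 39, 47 and 35 reads in KO1 to KO3, and 26, 52 and 39 reads in WT1 to WT3, or 0.916 ± 0.09 CPM in KO and 0.824 ± 0.29 CPM in WT (SD, n = 3 each). The mean CPM of the other 41 core genes lay between 121.6 (Rpl30) and 1710 (Rplp0). In GENCODE M21, 66.8% of the 100-base windows of Rpl24 are also in the transcripts of Gm28037, which is listed at 0 in all 6 libraries, and 80.1% are in those of any other gene. The sources used here do not say how reads with several matches or in overlapping genes were counted, so the Rpl24 level was not taken as its expression. Sharing of this kind is common in the family. The share of windows found in another annotated gene ran up to 91.1% (Rpl5) with a median of 32.9% over the core genes, and 15 of the 42 were over 50%. The 322 rows named as ribosomal protein pseudogenes (symbols with -ps) together held 4568, 5484 and 5087 reads in KO1 to KO3. In WT1 to WT3 they held 6452, 6000 and 5136 reads. The core genes held 787301 to 1083616 reads per library over both groups. Copies named otherwise, such as Gm15500 for Rpl5, are not in the pseudogene sum. Fold changes were alike on both sides of a 20% share, a value chosen after seeing the data. The 14 core genes under it had a median of −0.18 and the other 28 a median of −0.15.

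Within a group the core genes varied little between libraries. Leaving out Rpl24, the coefficient of variation had a median of 7.33% in KO (3.71% to 11.8%) and 7.23% in WT (2.67% to 10.6%), and each gene had at least 4538 reads in its shallowest library. Counting error is therefore small beside the spread between libraries. Across these 41 genes the log2 fold change had a Spearman correlation of −0.19 with transcript length, 0.07 with GC content, 0.16 with mean level and 0.20 with the share of windows found elsewhere. These are descriptions over genes that share the same 6 libraries.

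Start sites were examined because the core genes moved together. RefSeq start-site sequences (build GRCm38.p6) were matched by symbol for 39 of the 47 genes, 35 of them core. The letters CTTT, the core of the pyrimidine initiator of ribosomal protein genes, were searched for starting within 10 bases of the annotated start on the sense strand. Examples are shown from 40 bases before the start to 20 bases after it, with those letters in capitals. They are Rplp2 of the stalk at chr7:141447611-141447670 (plus strand), Rps6 at chr4:86857348-86857407 (minus strand), Rpl28 at chr7:4792925-4792984 (plus strand) and the paralogue Rpl39l, which had no reads, at chr16:10170188-10170247 (plus strand). Rpl22l1 at chr3:28805468-28805527 and Rpl7l1 at chr17:46782637-46782696 (plus and minus strand) hold no such match.
Rplp2: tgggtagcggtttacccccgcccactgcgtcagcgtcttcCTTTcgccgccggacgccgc
Rps6: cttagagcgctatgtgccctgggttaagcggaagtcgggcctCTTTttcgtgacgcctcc
Rpl28: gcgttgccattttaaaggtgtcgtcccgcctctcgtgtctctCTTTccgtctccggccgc
Rpl39l: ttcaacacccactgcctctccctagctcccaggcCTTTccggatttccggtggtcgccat
Rpl22l1: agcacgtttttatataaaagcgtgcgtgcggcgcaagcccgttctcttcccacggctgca
Rpl7l1: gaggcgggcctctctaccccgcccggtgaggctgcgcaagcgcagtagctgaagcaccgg

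The match was present for 10 of the 35 core genes (28.6%), against 10.5% of all 27025 genes with such a sequence, and on the other strand for 8.6% against 10.1%. The 10 core genes with it had a median log2 fold change of −0.18 and the 25 without it −0.16. GGAAG, the core letters bound by ETS factors, was found on either strand between 250 bases before and 50 bases after the start of 91.4% of the core genes, against 73.9% of all genes. AAGATGGC, letters bound by YY1, was found for 2.9% against 3.2%. On the other strand GGAAG reads CTTCC, which can share a base with a CTTT match.

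The other genes of protein synthesis were read from fixed lists. Of 37 further cytosolic ribosomal protein genes 37 had a negative fold change (median −0.19) and 0 passed edgeR's test, with 9 lower at an unadjusted p under 0.05. Over all tested genes 49.1% were negative, 1.92% were lower by edgeR's test and 10.4% were lower at that unadjusted p. DESeq2 called 3 of the 37 lower, Rpl10, Rps12 and Rps21, where it called 6.04% of all genes lower. The smallest p was that of the X-linked gene Rpl10, whose protein joins the 60S subunit late, at 355, 400.1 and 420.1 CPM in KO1 to KO3, against 472, 542 and 519 CPM in WT1 to WT3 (−0.38 ± 0.09, adjusted p = 0.0694). Of 4 other paralogues Rpl36al was at 34.3 ± 2.26 CPM in KO and 39.8 ± 3.28 CPM in WT (SD, n = 3 each; edgeR adjusted p = 0.325), Rps27rt was below 2 CPM, and Rpl10l and Rpl3l were below the filter. Mitochondrial ribosomal proteins, made by a separate set of genes, had a median of −0.15 over 76 tested genes with 69 negative and 0 past edgeR's test, with 21 lower at an unadjusted p under 0.05. DESeq2 called 4 of the 76 lower, where it called 6.04% of all genes lower. Mrpl38 had the smallest p, at 84.8 ± 4.39 CPM in KO and 109 ± 9.82 CPM in WT (SD, n = 3 each; edgeR adjusted p = 0.0894).

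Of 20 genes for translation factors and other proteins made from TOP mRNAs, 19 were negative (median −0.20). By edgeR's test 2 fell and 1 rose. Over all tested genes 49.1% were negative, 1.92% fell and 1.64% rose. At an unadjusted edgeR p under 0.05, 9 of the 20 were lower and 1 higher, where 10.4% of all tested genes were lower. All KO libraries lay below all WT libraries for 12 and above for 1, against 14.4% and 13.6% of all tested genes. DESeq2 called 4 lower and 1 higher, where it called 6.04% of all genes lower and 7.06% higher. The X-linked Eif2s3x, a subunit of initiation factor eIF2, fell by 40.6% to 21.7, 22.3 and 21.5 CPM in KO1 to KO3, against 33.7, 39.8 and 36.9 CPM in WT1 to WT3 (adjusted p = 0.0249). Its Y-linked counterpart Eif2s3y, given with the sex-linked genes, was detected in the KO libraries alone. The histone chaperone gene Nap1l1 fell by 23.5% (adjusted p = 0.0488). Vim, which rose 2.59-fold (adjusted p = 0.0191), encodes the filament protein vimentin and is on this list for its TOP mRNA.

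The p53 targets did not move 1 way. Of 25 genes, 15 had a positive and 10 a negative fold change (median 0.10). By edgeR's test 1 rose and 2 fell. Over all tested genes 49.1% were negative, 1.64% rose and 1.92% fell. DESeq2 called 2 of the 25 higher and 4 lower, where it called 7.06% of all genes higher and 6.04% lower. Sesn1, a stress-induced inhibitor of mTORC1, rose 1.40-fold (adjusted p = 0.0381), while the kinase gene Plk3 fell by 64.5% (adjusted p = 0.0093) and Perp, an effector of p53-dependent apoptosis, fell by 85.4% (adjusted p = 0.0318).

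**Figure D4:**
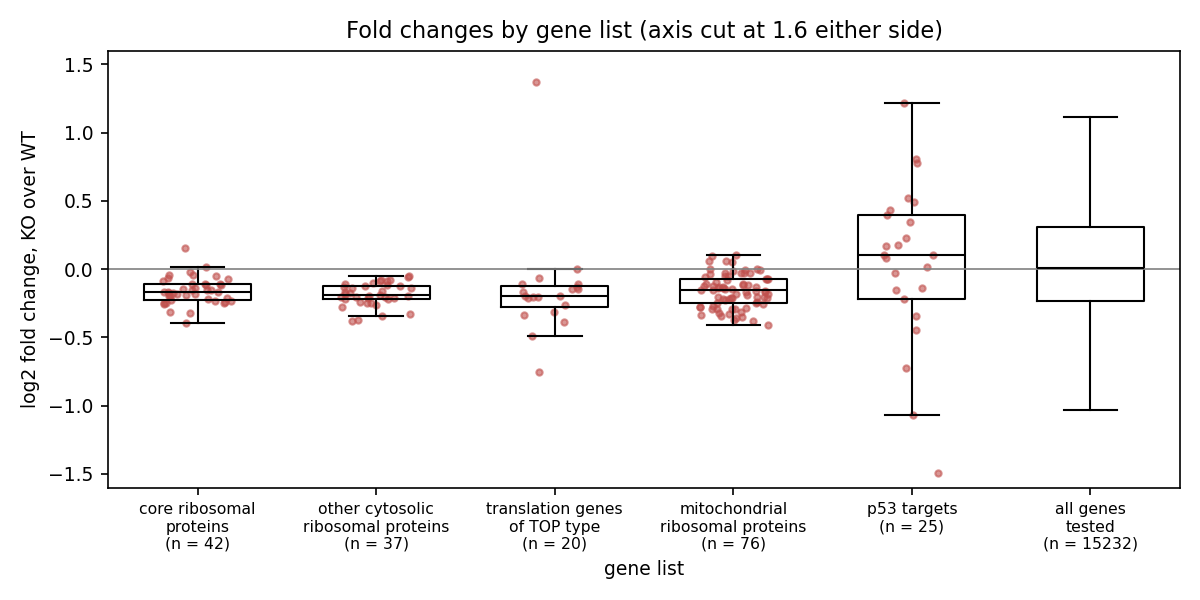
Log2 fold changes, KO over WT, of the core genes and of 4 further gene lists (points), with boxes at the quartiles, and of all 15232 tested genes (box alone). Medians are −0.17 for core ribosomal proteins, −0.19 for other cytosolic ones, −0.20 for the TOP list, −0.15 for mitochondrial ribosomal proteins, 0.10 for p53 targets and 0.01 for all genes. Perp (−2.77) lies outside the axis.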

How the data were processed

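The authors deposited raw counts, whole numbers of reads for each gene and library, in a single table. Per the labels' protocols, cDNA was amplified by SMARTer chemistry, made into Nextera XT libraries and read from a single end (100 bases). Neither strand nor single molecules are marked, so a read from an antisense gene or an amplified copy counts like any other and limits include counting error alone. The tools, per the submitters' processing notes, were featureCounts, Subread 2.0.1, STAR 2.7.9a and fastp 0.23.1. The sources used here do not give their settings, the genome build, the annotation or the handling of reads that match several places.

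Genes with low counts were removed by filterByExpr, grouped by genotype, with a minimum count of 10 in a library of typical size and of 15 in total, which left 15232. Libraries were scaled by TMM in edgeR 4.0.16 (R 4.3.3), and KO was compared with WT by the quasi-likelihood F test (robust fit, no covariate), with Benjamini-Hochberg adjustment over all tested genes at 0.05. CPM use TMM-scaled library sizes, and standard errors are the log2 fold change over the root of F. Adjusted p-values in the text are edgeR's unless another tool is named. All library pairs of a group differed by more than sampling noise (chi-square per degree of freedom of at least 32.8). By this measure KO2 lay nearer to WT3 (70.3) and WT2 (96.8) than to KO1 (107) and KO3 (113). Each of the other libraries lay nearest to a library of its own group. Ratios of a paralogue to its partner used reads plus 0.5. On simulated data for this comparison over 15232 genes, the fit recovered 11.9%, 44.8% and 65.2% of genes changed 1.5-fold, 2-fold and 4-fold, with 6 false calls.

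Transcript lengths, shared 100-base windows and pair alignments come from GENCODE M21, which may not be the annotation the authors used. The members, lists and tests were chosen with earlier results of these data known. Named genes were the paralogues and partners, the stalk genes, Rpl5, Rpl11, Rps6, Rps19, and the core genes at the ends of p, fold change and level, with the smallest p or up to 4 called members of the other lists. Rpl23 is among them by p. Alternatives were 3 scalings, 2 filters, DESeq2 1.42.0, limma-voom (limma 3.58.1), the replicate number as a block, an erythroid covariate and leaving out each library.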

Additional observations from a re-analysis of the deposited data

How the results depend on the processing

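The replicate numbers did not pair the libraries: deviations from the group means correlated at 0.0632, −0.143 and −0.0665 for numbers 1, 2 and 3, and of the KO libraries KO1 alone correlated best with its own number. With the replicate block, 8 genes were higher and 20 lower over all genes, against 250 and 293, and Rps4l kept an adjusted p of 0.0308. DESeq2 called 1075 higher and 920 lower, and 1 core gene, Rplp1, lower (adjusted p = 0.0350). The erythroid covariate left 143 higher and 101 lower. Without 1 library, 13 to 371 genes were higher and 29 to 247 lower, the fewest without WT3 and the most without KO2. No core gene was called in any fit without 1 library, and their median log2 fold change ran from −0.24 to −0.11. The share of reads in core genes differed by −0.31 to −0.19 percentage points. For 17 to 33 of the 42 core genes all KO libraries lay below all WT libraries. The 33 came without WT1, where 20.9% of all tested genes lay so, against 14.4% with every library in. Without KO3 18.5% of all tested genes lay so, and this share was not computed for the other fits. Rps4l ran from −5.88 to −5.03, with adjusted p-values from 0.0111 to 0.0643. Small values changed sign when 1 library was left out: Rps27l ran from −0.146 to 0.0222, the Rpl22l1 to Rpl22 ratio from −0.0505 to 0.0280 and the Rpl7l1 to Rpl7 ratio from −0.112 to 0.0428. So did Rps19 (−0.0506 to 0.0482), Rpl24 (−0.117 to 0.410), Rpl13 (−0.0848 to 0.0218) and Rpl35 (−0.115 to 0.0197), and with the erythroid covariate Rps19 was at −0.0673 and Rpl24 at −0.0398. The cause of these changes was not tested. Under the other 2 scalings of edgeR, library totals alone, both filters and limma-voom, 40 core genes stayed negative and no paralogue or core gene changed its side of the threshold. The level per kb depends on the length used. With the union of all exons the core median was 188 CPM per kb, against 373 for the longest coding transcript and 459 for the longest transcript with a RefSeq partner, a length added after seeing the data. The union gave 35.8 for Rpl22l1, 709 for Rps27l and 82.0 for Rpl7l1, against 129, 1006 and 110.0 CPM per kb. Per library, 3 reads set a limit of 0.0594 to 0.0727 CPM. With 3 libraries a group the fit can miss small changes, and changes of the size seen in the core genes were not simulated.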
